A study of Mus musculus with 6 samples.

Results

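The genes described here are 47 genes that mark neurons or carry out neuronal work, followed across 6 RNA libraries of HT22 cells. They were taken as the rows whose gene symbol was on the list, and 35 of the 47 had a row among the 26595 genes of the deposited table. A listed gene with no row was counted as not detected. HT22 is an immortalised line of mouse hippocampal origin, labelled hippocampal and of wild-type (WT) genotype in all 6 libraries. In 3 libraries the cells were exposed to the cytokine IL-17, and in the other 3, the controls, they had no special treatment. Neither dose nor time of exposure is given in the sources used here. A cell line has none of the glia and circuits that surround a neuron in tissue, and nothing in the labels says that the libraries came from separate cultures, so the p-values measure the spread between libraries, which may be technical.

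Neurons are recognised by proteins of their cytoskeleton, of the vesicles that release transmitter, and of the receptors and scaffolds that receive it. In most other cells many of these genes are held silent by the repressor REST, which binds a long element in DNA and brings in corepressors of the CoREST group. Progenitor cells and neural lines often keep the intermediate filament nestin and part of the neuronal programme, while markers of mature neurons come on only as REST falls and neuronal splicing factors take over.

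Values are FPKM as deposited, which are fragment numbers divided by transcript length and by the size of the library. Because FPKM is scaled by length, levels of different genes can be set side by side. Genes above 0 numbered 20959 to 21633 per library. Depth was not given. Low values of 10445 single-transcript genes piled up at steps that would make 1 fragment in a transcript of 2 kb worth either 0.0288 to 0.0318 FPKM or the smaller 0.0143 to 0.0158 FPKM, and which step is 1 fragment is not known. Transcripts of other tissues were uneven between libraries. The summed FPKM of 12 lung epithelial markers was 76.4, 65.6 and 173 in IL-17 replicates 1 to 3, against 5.85, 5.12 and 58.5 in control replicates 1 to 3. The summed FPKM of 15 liver markers was 182, 51.7 and 69.2 with IL-17 and 179, 154 and 115 in controls. The summed FPKM of 15 macrophage markers was 460 to 517 and that of 15 fibroblast markers 3072 to 3483. The highest of each list were Cd68, with a mean of 253 FPKM, and S100a4, with 2375 FPKM. Of the 15 macrophage markers, 8 had means of at least 1 FPKM, Lyz2 (79.1 FPKM), Tyrobp (66.5 FPKM) and Cd14 (24.4 FPKM) among them. The other 7 (Itgam at 0.160 FPKM among them) were under 1 FPKM. Of the 15 fibroblast markers, 12 had means of at least 1 FPKM, Vim (249 FPKM) and Acta2 (115 FPKM) among them. The other 3 (Fap, Lum and Dcn) were under 1 FPKM.

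HT22 cells held a small and uneven set of the neuronal genes. Only 9 of the 47 had a mean of at least 1 FPKM over the 6 libraries, and 3 more lay from 0.5 to 1 FPKM. A further 6 lay from 0.1 to 0.5 FPKM, 17 were under 0.1 FPKM and 12 were not in the table. Among 22028 annotated protein-coding genes, 44.9% reached 1 FPKM, against 19.1% of the neuronal genes, and 17.9% reached 10 FPKM, against 6.38% of the neuronal genes. The share with no row was 25.5% of the neuronal genes and 23.6% of all protein-coding genes, so the neuronal list stood lower in level while its share of missing genes was close to the background. Of the 35 listed genes, 23 were above 0 in all 6 libraries, 7 in 2 to 5 libraries and 5 in a single library.

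The label of the cells was checked against 8 markers of mature neurons. None reached a mean of 1 FPKM. The highest was Camk2a at 0.889 FPKM, followed by Syn1 at 0.732 FPKM, Slc17a7 at 0.333 FPKM and Map2 at 0.242 FPKM. Rbfox3 and Syt1 were at trace level, and Snap25 and Nefl were not in the table. By these markers the libraries do not carry the profile of mature hippocampal neurons. In a bulk library, fewer cells of a type and less RNA per cell cannot be told apart, so a low mean does not say whether all cells held a little of a transcript or a few cells held more.

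**Figure D1:**
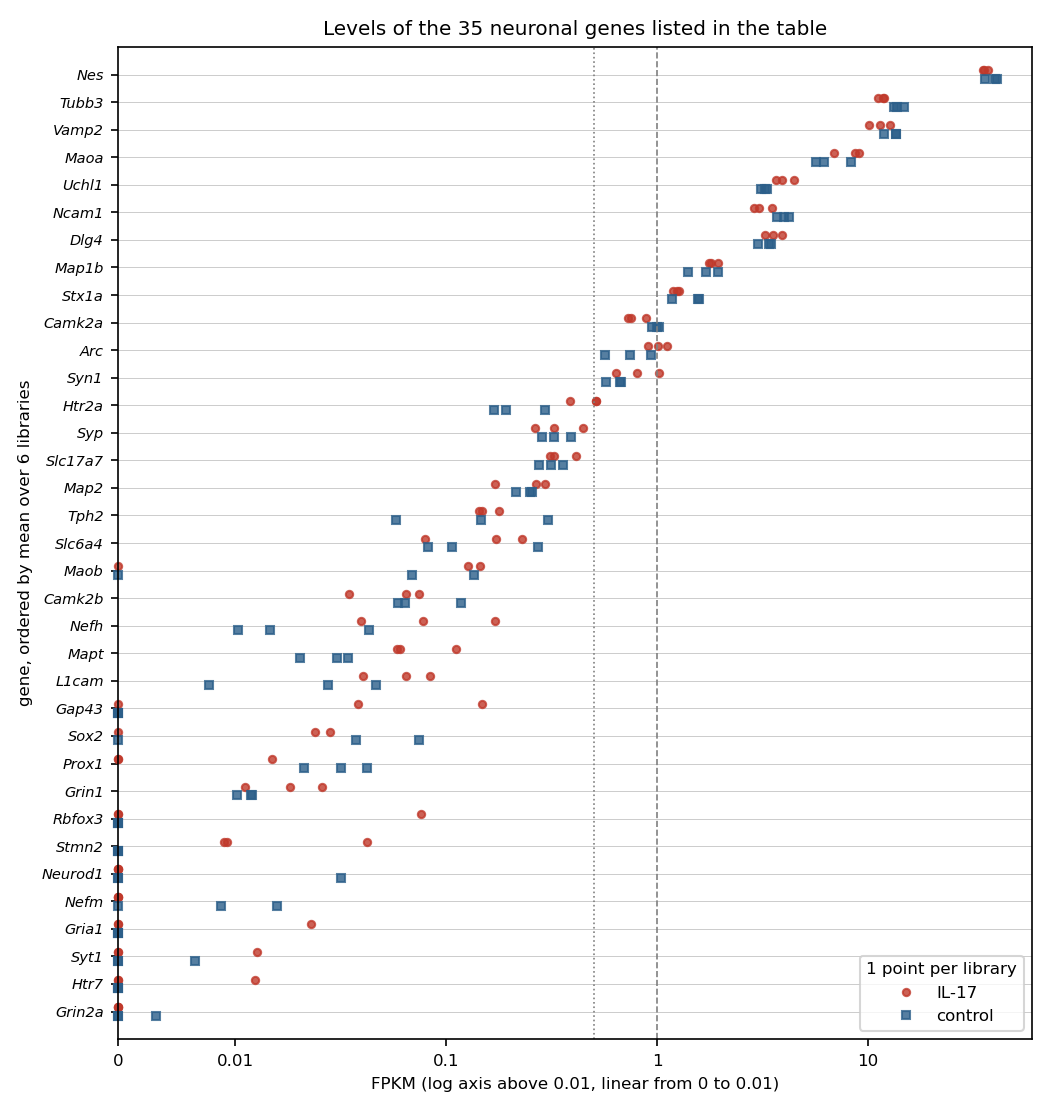
FPKM of the 35 neuronal genes with a row in the table, 1 point per library (red circles IL-17, blue squares control), ordered by the mean of 6 libraries. The axis is linear from 0 to 0.01 and logarithmic above, and the dotted and dashed lines mark 0.5 and 1 FPKM. Nes, Tubb3 and Vamp2 stand above 10 FPKM, and 17 genes lie under 0.1 FPKM.

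The promoters of the neuronal genes were searched for the REST element because it is the sequence through which neuronal genes are best known to be silenced. Promoter windows from RefSeq (build GRCm38.p6), 250 bases before to 50 bases after each start, were given for 32 of the 47 genes, in 39 windows. The canonical element was searched on both strands as CAGCACC, then 2 bases, then GGACAG. It was found in 0 of the 39 windows, and in 12 (0.0365%) of all 32851 windows. After the windows had been seen, a looser form was searched on both strands, AGCACC, 2 bases, then GGNCAG, where N is any base. It was found in windows of 3 genes, Gad2, Gria2 and Syn1, which is 7.69% of the neuronal windows against 0.101% of all windows. A form with 8 bases between the canonical ends, likewise added after the data were seen, was found in the window of Tph2 (2.56% of the neuronal windows, 0.0183% of all). The 4 stretches are shown 5′ to 3′ because 2 come from genes with no row and 2 from genes read at a low level. Capitals mark the matched bases.
Gad2: gctgtggtAGCACCctGGaCAGcgcgttcc
Gria2: tcgattttAGCACCgcGGaCAGcgctttgg
Syn1: tcggattcAGCACCgcGGtCAGagccttcg
Tph2: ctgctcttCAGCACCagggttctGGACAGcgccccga
The stretch of Gad2, a GABA-making enzyme, lies at chr2:22622156-22622185 on the plus strand, which is the strand of the gene. That of Gria2, an AMPA receptor subunit, lies at chr3:80802984-80803013 on the plus strand, opposite to the gene. The Syn1 stretch lies at chrX:20921126-20921155 and the Tph2 stretch at chr10:115184984-115185020, both on the minus strand, which is the strand of each gene. Gad2 and Gria2 were not in the table, Syn1 had a mean of 0.732 FPKM and Tph2 a mean of 0.163 FPKM. These are matches of letters and say nothing on whether REST is bound there in HT22, and a window with no match says only that those letters are not in it.

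Each end of the element was common by itself. The letters CAGCACC stood in 15.4% of the neuronal windows (those of Dlg4, Map1b, Nlgn1, Syn1, Tph2 and Tubb3) and in 7.14% of all windows, and GGACAG in 30.8% and 22.2%. Both overlap the longer forms above. The E-box CAGCTG was found in 12.8% of the neuronal windows and 16.3% of all windows, and TATAAA in 15.4% and 13.6%, both searched on both strands.

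Promoters of the neuronal genes also differed in their content of CG pairs, the bases that carry DNA methylation in mammals. The median ratio of observed to expected CG pairs was 0.612 over 9 windows of genes with at least 1 FPKM, 0.696 over 19 windows of genes listed under 1 FPKM, and 0.482 over 11 windows of genes with no row. These ranges overlapped widely (0.317 to 0.765, 0.205 to 1.28, and 0.201 to 0.849), and the median of all windows was 0.384. Windows of a well-read gene and of a trace gene are shown with each CG in capitals, to make the contrast between a CG-rich and a CG-poor window visible.
Tubb3: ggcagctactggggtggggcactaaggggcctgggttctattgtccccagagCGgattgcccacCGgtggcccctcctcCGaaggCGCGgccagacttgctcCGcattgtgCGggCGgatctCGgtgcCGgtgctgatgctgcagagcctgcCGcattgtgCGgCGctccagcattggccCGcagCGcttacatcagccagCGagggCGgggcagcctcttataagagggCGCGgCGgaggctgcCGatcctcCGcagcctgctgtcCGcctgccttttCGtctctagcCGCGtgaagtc
Rbfox3: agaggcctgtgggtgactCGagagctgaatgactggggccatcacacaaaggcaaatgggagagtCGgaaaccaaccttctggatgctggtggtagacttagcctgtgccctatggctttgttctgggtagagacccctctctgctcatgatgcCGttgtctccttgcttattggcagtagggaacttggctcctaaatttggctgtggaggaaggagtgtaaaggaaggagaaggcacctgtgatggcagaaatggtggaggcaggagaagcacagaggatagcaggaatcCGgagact
The Tubb3 window (chr8:123411303-123411602, plus strand) held 26 CG pairs and the Rbfox3 window (chr11:118760992-118761291, minus strand) held 4. The Tubb3 window covers the 5′ end of the annotated gene. That of Rbfox3 lies inside its gene, which spans bases 118489762 to 118911597, and does not cover the 5′ end of that span. The CG content did not sort the genes by level, since the window of Grin1, a gene at trace level, held 33 CG pairs, more than that of Nes, the highest of the 47, with 18. Methylation was not measured.

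Among the cytoskeletal and growth genes, 8 of 11 were in the table and 2 of the 11, Tubb3 and Map1b, reached 1 FPKM. Tubb3, which encodes the beta-tubulin isotype typical of neurons, spans bases 123411424 to 123422015 of chromosome 8 on the plus strand (GENCODE vM21, GRCm38). It was read at 11.9, 11.1 and 11.8 FPKM in the IL-17 libraries, against 13.7, 14.8 and 13.4 FPKM in the controls. All 3 IL-17 libraries were below all 3 controls, with means of 11.6 ± 0.416 FPKM and 14.0 ± 0.767 FPKM (SD, n = 3 each). The log2 fold change was -0.25 (SE 0.06, 95% interval -0.39 to -0.11) and did not pass, with an adjusted p of 0.0928 by limma over 12953 genes. Fold changes are on the scale of log2(FPKM + 1), which understates changes of genes with low values.

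Map1b, a microtubule-associated protein of growing axons, was read at 1.95, 1.75 and 1.81 FPKM under IL-17, and at 1.40, 1.94 and 1.70 FPKM in controls. The groups overlapped, and the log2 fold change was 0.09 (SE 0.09, adjusted p = 0.665, limma). Map2, a dendritic microtubule-binding protein, was at 0.295, 0.170 and 0.267 FPKM under IL-17, and at 0.249, 0.213 and 0.256 FPKM in controls, again with overlap. Mapt, which encodes the axonal protein tau, was lower still, at 0.0604, 0.0581 and 0.111 FPKM under IL-17 and 0.0202, 0.0340 and 0.0304 FPKM in controls. All 3 IL-17 values of Mapt were above the controls, though the highest was 0.111 FPKM. Nefh, the heavy neurofilament chain, ranged from 0.0102 to 0.170 FPKM, Nefm, the medium chain, was above 0 in 2 control libraries, and Nefl, the light chain, was not in the table. The exons of Nefl and Nefm share 1108 bases on opposite strands in the annotation, and whether strand was used in the quantification was not stated. Gap43, a growth cone protein, was at 0 in 4 libraries and at 0.0381 and 0.147 FPKM in IL-17 replicates 2 and 3. Stmn2, a neuronal stathmin, was above 0 in the IL-17 libraries alone, at 0.00905, 0.0093 and 0.0423 FPKM. Dcx, the doublecortin of migrating young neurons, and Stmn3, another neuronal stathmin, had no row.

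Of the 5 nuclear and progenitor genes, all were in the table and Nes alone reached 1 FPKM. Nes, the nestin gene of neural progenitors (chromosome 3, bases 87971078 to 87980451, plus strand), was the highest of the 47 genes. Its levels were 35.0, 35.5 and 37.0 FPKM under IL-17 and 35.8, 41.1 and 40.1 FPKM in controls. Control 1 lay among the IL-17 libraries and the other 2 controls above them, and the log2 fold change was -0.12 (SE 0.06, 95% interval -0.26 to 0.03, adjusted p = 0.394, limma). Sox2, a transcription factor of neural stem cells that often accompanies nestin, did not follow it in level. Sox2 was at 0 in IL-17 1 and control 2, and its highest value was 0.0744 FPKM in control 3.

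The transcription factors and nuclear markers of the hippocampal neuron lineage were at trace level. Prox1, a factor of dentate granule cells, was at 0, 0 and 0.0149 FPKM under IL-17 and 0.0211, 0.0318 and 0.0422 FPKM in controls. Neurod1, a proneural factor, was above 0 in control 2 alone, at 0.0316 FPKM. Rbfox3, the gene of the nuclear antigen NeuN, was above 0 in IL-17 3 alone, at 0.0761 FPKM.

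Presynaptic genes included the best-read synaptic gene of the list. Vamp2, a SNARE protein of synaptic vesicles (chromosome 11, bases 69088490 to 69092384, plus strand), was at 12.7, 11.4 and 10.1 FPKM under IL-17 and 11.9, 13.6 and 13.6 FPKM in controls. The groups overlapped, because IL-17 1 lay above control 1, and the log2 fold change was -0.18 (SE 0.09, 95% interval -0.39 to 0.03, adjusted p = 0.367, limma). Its partner on the plasma membrane, Stx1a, was at 1.19, 1.24 and 1.27 FPKM under IL-17 and 1.18, 1.56 and 1.58 FPKM in controls, and its log2 fold change was -0.12 (SE 0.08, adjusted p = 0.509, limma). Snap25, which completes that SNARE complex in neurons, was not in the table. The vesicle proteins were uneven as well. Syn1, which tethers vesicles, was at 1.02, 0.806 and 0.640 FPKM under IL-17 and 0.670, 0.575 and 0.676 FPKM in controls. The log2 fold change was 0.15 (SE 0.09, adjusted p = 0.461, limma). Syp, an abundant vesicle membrane protein, was at 0.326, 0.263 and 0.445 FPKM under IL-17 and 0.326, 0.286 and 0.392 FPKM in controls. For Syn1 and Syp the groups overlapped. Syt1, the calcium sensor of release, was above 0 in IL-17 1 and control 1 alone, at 0.0126 and 0.00659 FPKM.

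Of the 5 postsynaptic genes, Dlg4 alone reached 1 FPKM. Dlg4, the main scaffold of excitatory synapses, was at 3.93, 3.55 and 3.26 FPKM under IL-17 and 2.99, 3.40 and 3.45 FPKM in controls, with overlap. The log2 fold change was 0.10 (SE 0.08, adjusted p = 0.572, limma). Camk2a, the kinase subunit of forebrain excitatory neurons, was at 0.888, 0.750 and 0.729 FPKM under IL-17 and 0.947, 1.00 and 1.02 FPKM in controls. All 3 IL-17 values of Camk2a were below the controls, yet its log2 fold change of -0.15 (SE 0.07, 95% interval -0.32 to 0.01) had an adjusted p of 0.327 by limma. Its sister subunit Camk2b ranged from 0.0344 to 0.118 FPKM. Arc, an activity-induced gene whose protein regulates AMPA receptors, was at 1.01, 0.907 and 1.11 FPKM under IL-17 and 0.938, 0.565 and 0.745 FPKM in controls. Control 1 of Arc lay within the IL-17 range, and the log2 fold change was 0.20 (SE 0.10, adjusted p = 0.338, limma). Nlgn1, a postsynaptic adhesion protein, was not in the table.

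Transmitter genes were the scarcest. Of 6 glutamate genes, 4 had a row and none reached 0.5 FPKM. Slc17a7, the vesicular glutamate transporter of cortical and hippocampal neurons, was highest, at 0.309, 0.414 and 0.325 FPKM under IL-17 and 0.276, 0.314 and 0.359 FPKM in controls. Grin1, the obligatory NMDA receptor subunit, was above 0 in all 6 libraries, from 0.0102 to 0.0257 FPKM. Grin2a, another NMDA receptor subunit, was above 0 in control 3 alone and the AMPA receptor subunit Gria1 in IL-17 3 alone, and neither Grin2b nor Gria2 had a row. The ionotropic glutamate receptors on the list were thus each under 0.1 FPKM or not in the table. Neither GABA-making enzyme on the list, Gad1 or Gad2, and neither cholinergic gene, Chat or Slc18a3, had a row.

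The 7 serotonin and monoamine genes were read unevenly. Maoa, the mitochondrial enzyme that degrades serotonin and noradrenaline, was at 6.87, 8.65 and 9.08 FPKM under IL-17 and 8.28, 5.66 and 6.18 FPKM in controls. IL-17 2 and 3 were the highest, but control 1 lay above IL-17 1, and the log2 fold change was 0.26 (SE 0.14, 95% interval -0.07 to 0.59, adjusted p = 0.395, limma). Its paralog Maob was at 0 in IL-17 2 and control 2 and no higher than 0.144 FPKM elsewhere. Maoa is expressed in many cell types, and it was the one gene of the group to reach 1 FPKM.

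Htr2a, a serotonin receptor of cortical neurons (chromosome 14, bases 74640840 to 74709494, plus strand), was at 0.512, 0.514 and 0.384 FPKM under IL-17 and 0.169, 0.293 and 0.191 FPKM in controls. All 3 IL-17 libraries were above all 3 controls, with means of 0.470 ± 0.0743 FPKM and 0.218 ± 0.0663 FPKM (SD, n = 3 each). Its mean over the 6 libraries was under 0.5 FPKM, so it was not tested. With no filter on low values the log2 fold change was 0.27 and the adjusted p was 0.190 by limma, and with a pseudocount of 0.1 as well they were 0.85 and 0.264. Neither form passed.

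The serotonin transporter and the serotonin-making enzyme were low, with overlapping groups. Slc6a4, the transporter, ranged from 0.0796 FPKM in IL-17 1 to 0.271 FPKM in control 3. Tph2, the neuronal tryptophan hydroxylase, ranged from 0.0579 FPKM in control 2 to 0.305 FPKM in control 3. Of the other receptors, Htr7 was above 0 in IL-17 1 alone, at 0.0124 FPKM, and Htr1a was not in the table.

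Adhesion and ubiquitin genes included 1 gene that was higher and 1 that was lower in every IL-17 library. Uchl1, a deubiquitinating enzyme abundant in neurons (chromosome 5, bases 66676091 to 66687234, plus strand), was at 3.93, 4.44 and 3.66 FPKM under IL-17 and 3.31, 3.12 and 3.23 FPKM in controls. All 3 IL-17 values were above the controls, and the log2 fold change was 0.24 (SE 0.07, 95% interval 0.07 to 0.41, adjusted p = 0.159, limma). Ncam1, a neural cell adhesion molecule (chromosome 9, bases 49502136 to 49798925, minus strand), was at 3.49, 3.05 and 2.88 FPKM under IL-17 and 3.70, 4.0 and 4.23 FPKM in controls. All 3 IL-17 values were below the controls, and the log2 fold change was -0.27 (SE 0.08, 95% interval -0.45 to -0.09, adjusted p = 0.148, limma). Neither passed. L1cam, an axonal adhesion molecule, ranged from 0.00778 to 0.0839 FPKM. In the annotation an antisense gene overlaps 18.1% of the exonic bases of Uchl1, and it had no row in the table.

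Set against the whole table, the neuronal genes did not stand out for change. Of the 12 neuronal genes that passed the filter on low values, 0 were higher and 0 were lower with IL-17 at an adjusted p under 0.05 (limma). By the same fit 3 had an unadjusted p under 0.05, Uchl1 higher and Tubb3 and Ncam1 lower. The share of all tested genes under that unadjusted p was not computed. Such counts, here and for the lists below, are therefore not shown to stand out. The same fit was repeated in other settings, given further below, and no test of another kind was run on these values. Over all 12953 tested genes 1.95% were called, 0.950% higher and 0.996% lower. Groups did not overlap for 4 of the 12, Uchl1, Tubb3, Ncam1 and Camk2a, which is 33.3% beside 24.2% of all tested genes. Log2 fold changes were positive for 6 and negative for 6, with a median of -0.02 beside 0.02 for all tested genes. The coefficient of variation over the 6 libraries ran from 6.84% to 22.4% among the 12. Intervals as wide as those given above leave room for changes of such sizes, so a gene that did not pass is not shown to be unchanged. The sum of FPKM over all the neuronal genes was 85.1 to 86.2 with IL-17 and 86.5 to 92.8 in controls.

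**Figure D2:**
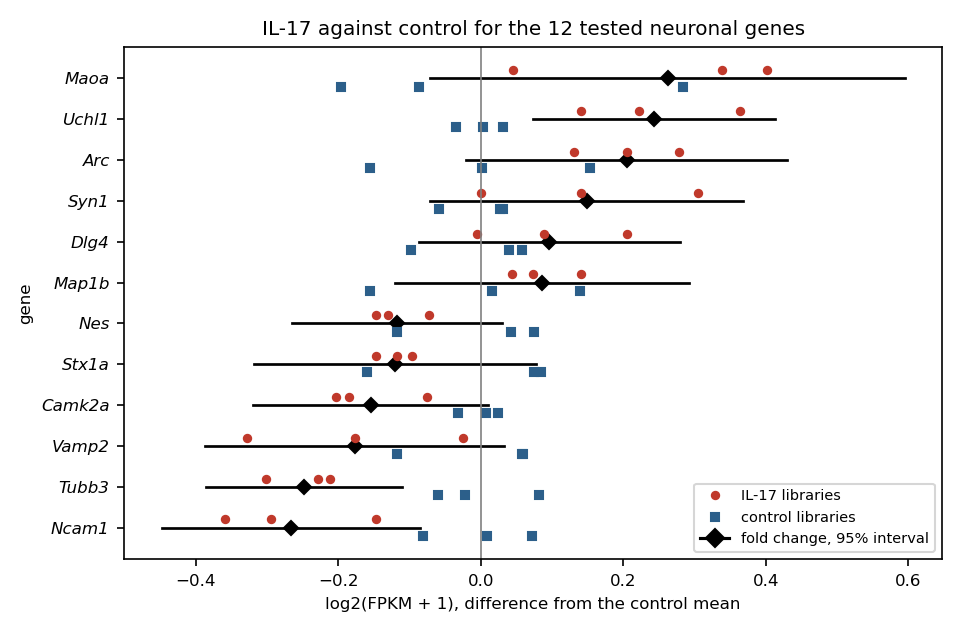
Log2(FPKM + 1) of the 12 tested neuronal genes relative to the control mean. Red circles are IL-17 libraries, blue squares control libraries, and black diamonds the log2 fold change with its 95% interval. The intervals of Uchl1, Tubb3 and Ncam1 do not reach 0, and no gene passed an adjusted p of 0.05.

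The 17 neuronal genes under 0.1 FPKM were not spread evenly over the libraries. Their summed FPKM was 0.501, 0.296 and 0.845 in the IL-17 libraries and 0.348, 0.288 and 0.349 in controls. IL-17 3 had the highest value for 6 of them, Nefh, Mapt, Gap43, Rbfox3, Stmn2 and Gria1, and IL-17 1 for 5, while IL-17 2 had the highest for 0 and the 3 controls for 1, 2 and 3. The number of the 17 above 0 was 9, 8 and 12 with IL-17 and 10, 7 and 10 in controls. Over the whole table, IL-17 3 and IL-17 1 also had the most genes above 0, 21633 and 21468, with control 3 next at 21442. The same counts over all genes under 0.1 FPKM were not made, so the pattern is not shown to be particular to these 17. IL-17 3 was also the library with the highest sum of lung epithelial markers, given above, of which Scgb1a1, a secreted protein of airway club cells, was at 118 FPKM there. The part of such transcripts in the trace values was not tested.

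**Figure D3:**
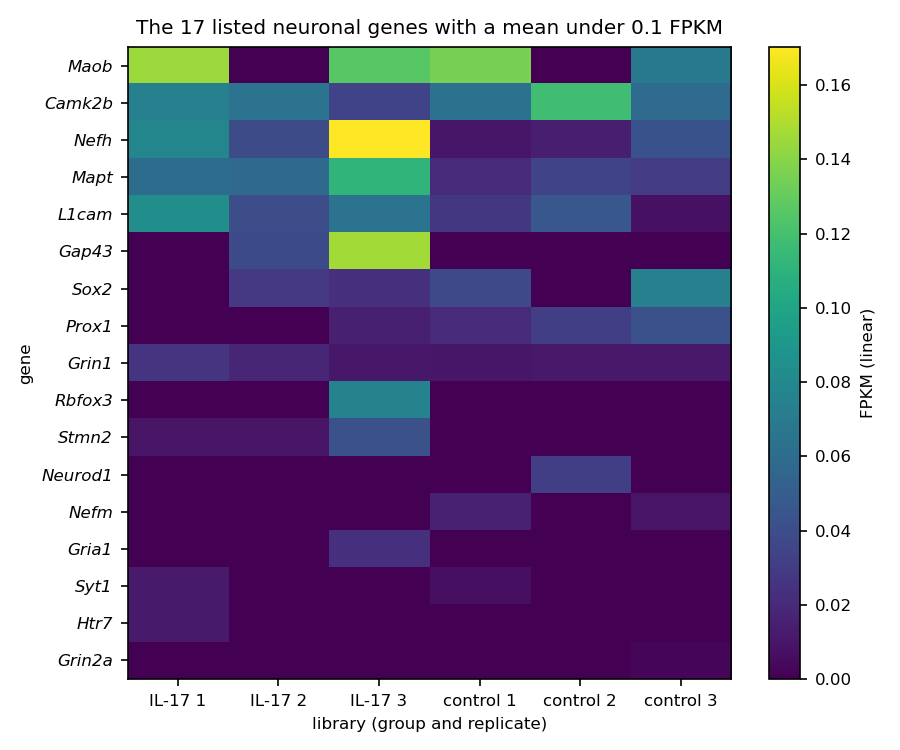
FPKM (linear colour scale) of the 17 neuronal genes with a mean under 0.1 FPKM, 1 column per library. The brightest cells are Nefh at 0.170 and Gap43 at 0.147 FPKM in IL-17 3, and Rbfox3 is above 0 in that library alone.

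Many of the neuronal proteins have a relative that serves the same machinery in most cells, and HT22 cells read the relative at a higher level for most of the pairs examined. Tubb5, a widely expressed beta-tubulin, had a mean of 615 FPKM, 48.1 times that of Tubb3. Map4, the microtubule-associated protein of non-neuronal cells, had a mean of 15.2 FPKM, 62.9 times that of Map2. Stmn1, the general stathmin, had 73.8 FPKM beside 0.0101 FPKM for Stmn2. The kinase subunit Camk2g had 6.69 FPKM and Camk2d 1.11 FPKM, and Camk2g was 7.52 times the level of Camk2a. At the membrane, Snap23, the general counterpart of Snap25, had a mean of 5.21 FPKM while Snap25 had no row. Stx4a had 23.7 FPKM beside the lower Stx1a, and the vesicle protein Sypl had 7.20 FPKM, 21.2 times Syp.

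In 2 pairs the neuronal gene was higher in at least 1 library. Vamp2 and its widely expressed relative Vamp3 (mean 13.4 FPKM) stood at a ratio of 0.738 to 1.04 over the 6 libraries. The ratio of Dlg4 to Dlg1 was 0.934 to 1.10. Uchl1 was below Uchl3 in every library, at a ratio of 0.449 to 0.672. In each of these ratios the groups overlapped. Of 11 ratios computed, 3 did not overlap between groups, those of Camk2a to Camk2g, Map1b to Map1a and Nes to Vim. Groups did not overlap for 24.2% of all tested genes taken singly. No such share was computed for ratios of other gene pairs, so the 3 ratios are not shown to stand out. The ratio of Camk2a to Camk2g was 0.132, 0.124 and 0.105 with IL-17 and 0.144, 0.143 and 0.150 in controls. That of Map1b to Map1a, a relative of the same family, was 0.1982, 0.203 and 0.2138 with IL-17 and 0.2143, 0.2452 and 0.2218 in controls, so IL-17 3 and control 1 nearly met. The ratio of Tubb3 to Tubb5 was 0.0193 to 0.0226 with overlap.

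**Figure D4:**
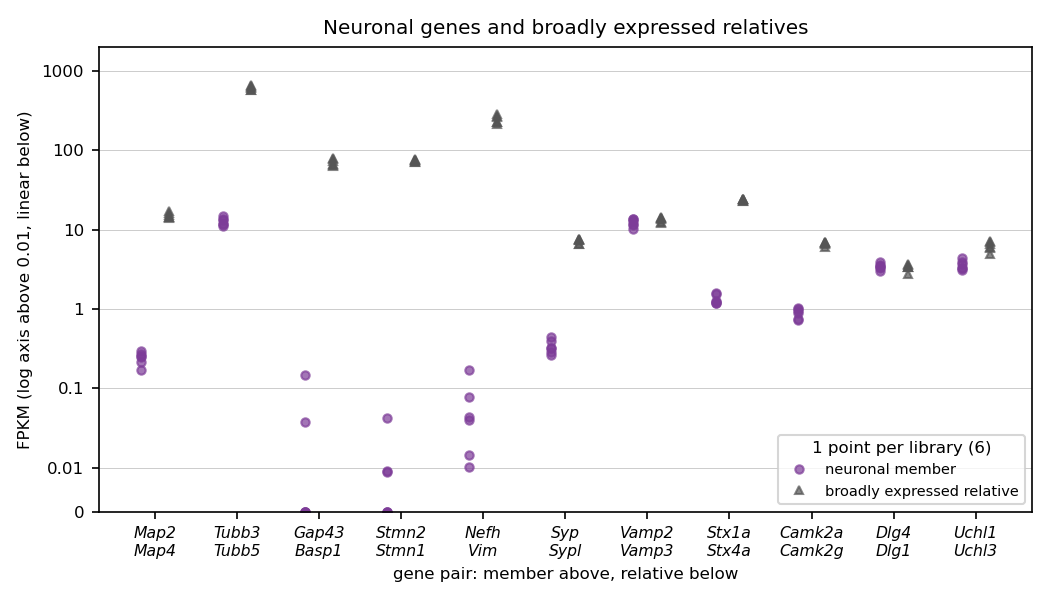
FPKM of 11 neuronal genes (purple circles) and of a broadly expressed relative of each (grey triangles), 1 point per library, 6 per gene, on an axis that is logarithmic above 0.01. The relative is higher in every library for all pairs except Vamp2 with Vamp3 and Dlg4 with Dlg1.

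Nes, the other intermediate filament of progenitors beside vimentin, was compared with Vim, the mesenchymal filament gene. Vim fell with IL-17, from 274 ± 9.14 to 223 ± 7.72 FPKM (SD, n = 3 each). The log2 fold change was -0.30 (SE 0.05, adjusted p = 0.0334, limma). This call was past the threshold in 6 of 18 other settings, and was lost when any single library was left out (adjusted p 0.0228 to 0.212 over the settings). The ratio of Nes to Vim was 0.156, 0.154 and 0.172 with IL-17 and 0.135, 0.150 and 0.141 in controls, with no overlap. Among all 25 tested genes of the list of relatives, 0 rose, Vim alone fell and 24 did not pass, with a median log2 fold change of 0.01. That list also held Nlgn2, which is counted again in the second list of neuronal genes below.

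Tubb3 was lower in every IL-17 library, and so were most other tubulins. Of 16 tested tubulin genes, 0 rose, 1 fell and 15 did not pass. The 1 that fell was Tubb4b, a widely expressed beta-tubulin, from 255 ± 1.85 to 216 ± 2.73 FPKM (SD, n = 3 each). The log2 fold change was -0.24 (SE 0.04, adjusted p = 0.0405, limma). It too was past the threshold in 6 of 18 other settings and not with any single library left out (adjusted p 0.0372 to 0.247). Log2 fold changes were negative for 14 of the 16, with a median of -0.08 beside 0.02 for all tested genes, and negative for 13 or 14 of 16 in every other setting that tested 16. Groups did not overlap for 11 of the 16 (68.8%, beside 24.2% of all tested genes), 10 of them lower and 1, Tubb4a, higher with IL-17. Tubb3 made up 1.12%, 1.09% and 1.16% of the FPKM of 8 beta-tubulin genes with IL-17 and 1.20%, 1.27% and 1.16% in controls, and here the groups overlapped. A lower share of Tubb3 among the beta-tubulins was therefore not separated from the spread between libraries.

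**Figure D5:**
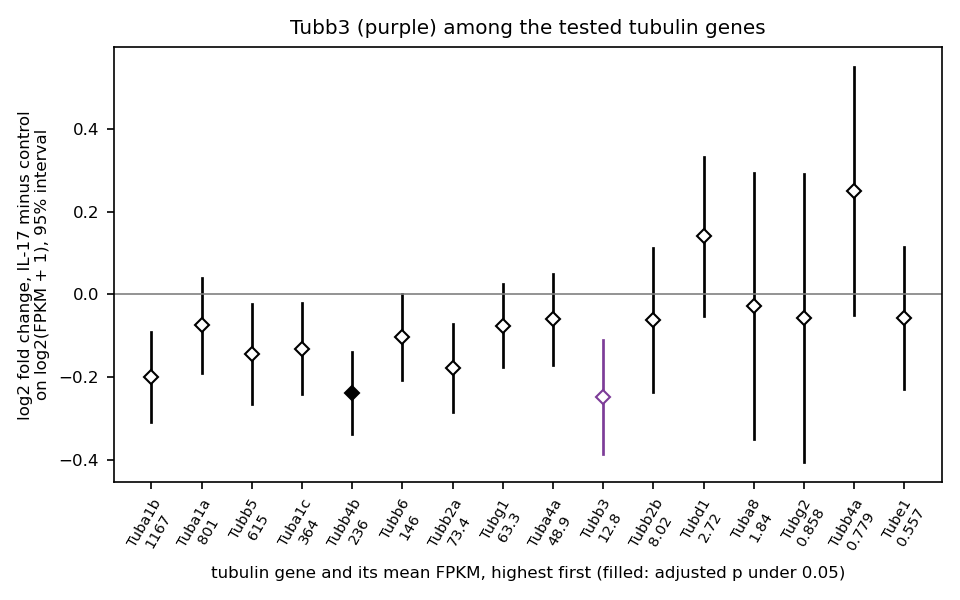
Log2 fold change of 16 tested tubulin genes with its 95% interval, ordered by mean FPKM, which is given under each name. Tubb3 is purple, and the filled symbol is Tubb4b, the one with an adjusted p under 0.05. Of the 16 values, 14 lie below 0.

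Genes known to hold the neuronal programme down were well read, and whether they did so in these cells was not tested. Of 19 genes of the REST complex and related repressors, all had a row. Of the 19, 18 reached 1 FPKM, beside 44.9% of annotated protein-coding genes. With IL-17, 0 rose and 0 fell (limma, 3 at an unadjusted p under 0.05, 13 positive, 6 negative, median log2 fold change 0.03). Rest itself was at 2.70, 2.49 and 2.37 FPKM under IL-17 and 2.04, 2.20 and 2.48 FPKM in controls, with overlap. The log2 fold change was 0.12 (SE 0.08, adjusted p = 0.459, limma). Its corepressor Rcor1 had a mean of 5.08 FPKM (adjusted p = 0.873, limma), and its sign differed between settings. Ptbp1, the RNA-binding protein that represses neuronal exons in non-neuronal cells, was at 142, 130 and 125 FPKM under IL-17 and 141, 149 and 153 FPKM in controls (log2 fold change -0.16, SE 0.06, adjusted p = 0.254, limma). Its neuronal counterpart Ptbp2 had a mean of 0.976 FPKM. The neuronal splicing side of the switch was low. Of 14 splicing and RNA-binding regulators of neurons, 11 had a row, 2 reached 1 FPKM, Rbfox2 at 16.4 FPKM and Celf4 at 1.43 FPKM, and of 3 tested 0 rose and 0 fell (limma, 0 at an unadjusted p under 0.05).

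A second list of 46 neuronal genes outside the 47 gave a like picture of levels. Of these, 41 had a row, 8 reached 1 FPKM, and of 12 tested 0 rose and 0 fell (limma, 2 higher and 3 lower at an unadjusted p under 0.05). Among the highest were Nlgn2, an adhesion protein of inhibitory synapses, at 11.2 FPKM, Dpysl3, a growth cone protein, at 7.65 FPKM, and the enolase Eno2 at 4.69 FPKM. Of 20 other serotonin genes, 12 had a row and 3 reached 1 FPKM, S100a10 at 353 FPKM, Aldh2 at 69.9 FPKM and Gch1 at 4.83 FPKM, all with wider roles than serotonin, and of 3 tested 0 passed (limma, 0 at an unadjusted p under 0.05). Of 12 other cholinergic genes, 10 had a row, and Chrm4, a muscarinic receptor, alone reached 1 FPKM, at 1.04 FPKM, with 0 of 2 tested past the threshold (limma, 1 at an unadjusted p under 0.05). Of 11 activity-induced early genes, to which Arc is related by its regulation, 8 were tested and 0 passed (limma, 4 higher and 1 lower at an unadjusted p under 0.05). Ier2 was highest at 23.1 FPKM and Egr1 next at 3.73 FPKM. Groups did not overlap for 7 of the 12 tested genes of the second list and 6 of the 8 early genes. That held for 0 of the 3 serotonin and 0 of the 2 cholinergic genes, beside 24.2% of all tested genes.

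Some genes that mark the hippocampus and its regions were read as well, and others were at trace level. Of 16 such genes, 13 had a row and 5 reached 1 FPKM. Calb1, Fibcd1 and Emx1, for instance, had means of 0.0490, 0.021 and 0.0196 FPKM. Wfs1, a marker of one of its pyramidal fields, had a mean of 14.7 FPKM, and the transcription factors Lhx2 and Emx2 of the developing cortex had 2.12 and 1.62 FPKM. Wfs1, Lhx2 and Emx2 did not pass, with adjusted p of 0.730, 0.374 and 0.557 by limma. Of 20 progenitor and glial genes, 7 were tested and Vim alone passed, and Cspg4, Msi1 and Pax6 followed it in level at 4.05, 1.43 and 1.38 FPKM.

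Gene length was looked at because long genes need more time to be transcribed. The median span in the annotation was 27.6 kb for the 9 neuronal genes of at least 1 FPKM, 61.5 kb for the 26 listed under 1 FPKM and 63.4 kb for the 12 with no row. The ranges overlapped, from 3.90 to 297 kb, 2.06 to 513 kb and 2.41 to 906 kb, so span did not sort the genes by level.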

How the data were processed

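RNA was measured in 3 IL-17 and 3 control libraries of HT22 cells, grouped by the treatment label. Per the labels' protocols, poly(A) RNA was made into dUTP-marked paired-end libraries. The authors deposited 1 table of FPKM values, used as deposited, and fastp, StringTie, edgeR and build mm10 are named per the submitters' processing notes. Aligner and strand setting are not given in the sources used here. Of the value columns, 0 were left unused. Symbols came from GENCODE vM21 (26525 identifiers matched, 70 did not).

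The 12953 genes whose mean reached 0.5 FPKM were tested on log2(FPKM + 1) by limma 3.58.1 (R 4.3.3) using a mean-variance trend, group as the term and Benjamini-Hochberg adjustment over all of them, called at adjusted p under 0.05. The fit was tested on simulated data. An exact permutation test of 3 against 3 libraries cannot go below p = 0.1. The depth behind a value is not known, so no counting interval is given. The genes and lists were chosen with earlier results of these data known. Described in full were the tested neuronal genes, and from each other list its called genes, otherwise up to 4 of highest level, with Rest, Rcor1, Ptbp1 and a set of relatives whatever their value. Sypl, Stx4a, Dlg1, Map1a, Tubb4a, Ptbp2, Scgb1a1 and the low macrophage, fibroblast and hippocampal markers were named after their values were seen. Alternatives were pseudocounts of 0.1 and 0.5, other filters, TMM, quantile and TPM scaling, other variance models, a replicate block, left-out libraries and an adjusted p under 0.1. Protein sequences were not used here, so the planned identities between relatives are not given. Some results of the other gene lists are not reported here.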

Additional observations from a re-analysis of the deposited data

How the results depend on the processing

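No neuronal gene was called in 17 of 18 other settings, and at an adjusted p under 0.1 there was 1 called lower, Tubb3, and 0 higher. Over those settings no tested neuronal gene changed sign. Tubb3 ranged from -0.30 to -0.21 (log2, adjusted p 0.0795 to 0.320), Ncam1 from -0.33 to -0.22 (0.0912 to 0.371) and Uchl1 from 0.18 to 0.30 (0.146 to 0.404), by limma. The number of neuronal genes of at least 1 FPKM was 9, and it stayed 9 without each library. It was 12 in TPM or at a threshold of 0.5 FPKM, and 18 at 0.1 FPKM. The count over all tested genes, 123 higher and 129 lower, was less stable. It was 63 and 72 with no filter, 276 and 257 at an adjusted p under 0.1, 68 and 92 without IL-17 1 and control 3 together, and 57 to 109 higher and 60 to 142 lower without each library in turn. The cause was not tested, beyond the fewer libraries in the last 2.

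With the replicate number as a block, 41 genes were higher and 39 lower, and 0 neuronal genes were called. Deviations of same-numbered libraries from their group means had correlations of -0.14, 0.08 and 0.21 for replicates 1 to 3. The highest correlation of each IL-17 library with a control of another number was 0.25, 0.05 and 0.09. The same number gave the higher value for replicates 2 and 3 and the lower for replicate 1. All of these were weak, and the numbers were not taken to pair the samples. Depth is not given, so the counting error of values under 0.1 FPKM is not known.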

Other observations

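Control 2 held traces of some genes of secretory granules, which neurons share with endocrine cells, that were at or near 0 in the other libraries. Chgb, a granin of dense-core vesicles, was at 1.01 FPKM in control 2, at 0.0203 FPKM in control 1 and at 0 in the other 4 libraries. Chga, another granin, was at 0.188 FPKM in control 2 and 0.0140 FPKM in control 3, and Scg2 at 0.231 FPKM in control 2 and 0.0238 FPKM in IL-17 3, with 0 elsewhere. These 3 genes were named after their values were seen. Vgf, another secretory granule gene of the same list, did not share the pattern, with 0.494 to 0.824 FPKM over the 6 libraries and its highest value in IL-17 2. Control 2 was also the library in which Neurod1 was above 0, though only at a trace level of 0.0316 FPKM. The source of these transcripts in control 2 was not tested.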
